A study of Vitis vinifera with 2 samples.

Results

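A set of transposable elements (TEs) of the grapevine genome had a methylation level for cytosines in the CG and CHH contexts but none for the CHG context. A TE was taken as a member where the tables of its class listed it for CG and for CHH and did not list it for CHG. There were 15678 such TEs among 184251 listed (8.51%). Of these, 3066 were genic TEs, which overlap a gene annotation, and made up 7.06% of 43403 listed genic TEs. The remaining 12612 were intergenic TEs, 8.95% of 140848. A TE was listed for a context where its effective coverage in that context, as the study defined it, exceeded 20 in both libraries, so membership was set by coverage and not by a methylation level. The coverage values themselves were not used here, and the depth behind each level is therefore unknown.

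Whole-genome bisulphite sequencing, which reads unmethylated cytosines as thymine, was applied to proliferating embryogenic callus (EC) and to young leaf tissue of Vitis vinifera cv. Chardonnay. EC is a culture of dividing cells, here raised from anthers, from which whole plants can be regenerated through somatic embryos, and the material of 3 Petri dishes was pooled per sample. Leaf samples held 5 young leaves of the same vines. EC was kept on solid culture medium in darkness for months, while the vines grew in a vineyard, so tissue and growth conditions cannot be told apart. Each tissue was represented by 1 library, so every difference between EC and leaf below is a difference between 2 libraries, has no replicate check and carries no p-value. Spreads are given over TEs and over chromosomes 1 to 19, and cover neither plants, cultures nor library preparations.

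Cytosine methylation in plants is kept up by different enzymes in each sequence context. In Arabidopsis thaliana, the methyltransferases CMT2 and DRM2 act on CHH sites, where H is A, C or T, and small RNAs direct DRM2 to its targets. CHG methylation depends largely on CMT3, which is recruited by a methylation mark on histone H3, and CG methylation on the maintenance enzyme MET1. Silent TEs usually carry methylation in all of these contexts, whereas methylation within genes is usually restricted to CG.

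Every member had a level for CG and CHH in both libraries. Levels are the deposited fractions as percentages, and differences are EC minus leaf in percentage points. For comparison, TEs of the same class that were listed in all 3 contexts (20901 genic and 67669 intergenic) were weighted so that their lengths were distributed like those of the members. They are called length-weighted TEs below.

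The members were short. Genic members had a median length of 201 bp (interquartile range 126 to 318.75 bp, full range 13 to 5754 bp), against 692 bp for genic TEs listed in all 3 contexts. Intergenic members had a median of 230 bp (141 to 356.25 bp, full range 12 to 7728 bp), against 729 bp. Only 62 genic and 356 intergenic members reached 1000 bp. Of the TEs listed for both CG and CHH, 12.8% of 23967 genic TEs and 15.7% of 80281 intergenic TEs had no CHG level. The share was 51.9% for genic and 51.1% for intergenic TEs of up to 50 bp, 24.2% and 30.2% at 201 to 300 bp, and 0.354% and 0.456% above 2000 bp. It was lower in each longer class, and at every length class above 50 bp it was larger in intergenic than in genic TEs.

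**Figure D1:**
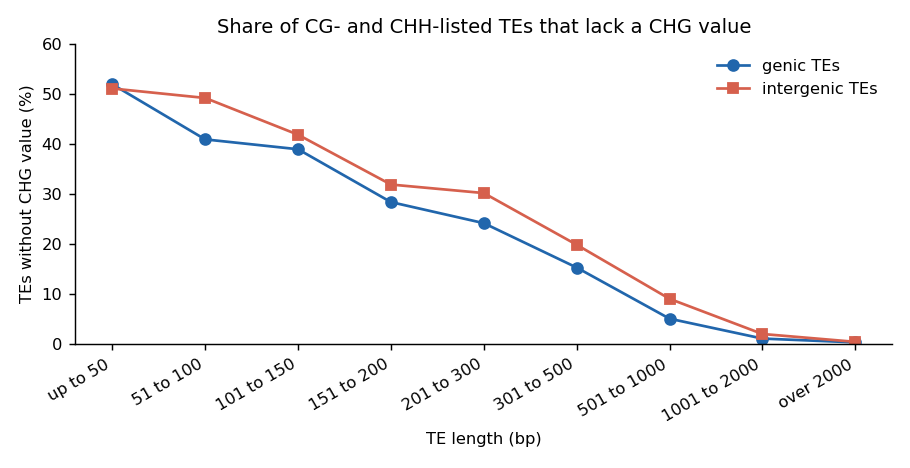
Percentage of TEs listed for CG and CHH that had no CHG level (y axis), by TE length in bp (x axis), for genic TEs (circles) and intergenic TEs (squares). The share is 51.9% of genic and 51.1% of intergenic TEs in the shortest class, and 0.354% and 0.456% above 2000 bp.

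Members were found on all of the 19 chromosomes. The genic share was between 11.04% on chromosome 8 and 15.8% on chromosome 3, although the lengths of the TEs on these chromosomes alone would give 13.4% and 13.3% (SD over chromosomes 1.25 percentage points). The intergenic share was between 13.6% on chromosome 2 and 17.5% on chromosome 6, with 15.9% and 15.5% from the lengths (SD 1.12). By strand, 13.7% of genic TEs on the minus strand and 11.9% on the plus strand lacked a CHG level, while intergenic TEs had 15.7% on either strand.

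CG methylation of the members was high in both tissues. Genic members averaged 82.0% ± 21.8 (SD over TEs, n = 3066) in EC and 81.6% ± 20.9 in leaf, with medians of 90.8% and 89.3%. Their mean CG change was 0.39 ± 15.7 percentage points and was positive on 12 of 19 chromosomes, with chromosome means between -3.25 on chromosome 6 and 4.55 on chromosome 9. The length-weighted genic TEs averaged 81.7% in EC and 81.8% in leaf, a change of -0.08 points. The members' change was higher by 0.45 points, which is less than the SD of that difference over chromosomes (1.82 points).

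Intergenic members averaged 81.1% ± 21.2 CG methylation (n = 12612) in EC and 78.3% ± 21.5 in leaf. Their mean change was 2.86 ± 17.7 percentage points, with chromosome means between -1.41 on chromosome 6 and 4.96 on chromosome 10, and positive on 16 of 19. The change of the length-weighted intergenic TEs was 2.94 points, so that members and length-weighted TEs differed by -0.09 points (SD over chromosomes 0.90). The CG level, in contrast, was lower in the members than in the length-weighted TEs, at 81.1% against 84.6% in EC and at 78.3% against 81.6% in leaf, and it was lower on 19 of 19 chromosomes in each tissue. The difference of level was -3.45 points in EC and -3.36 points in leaf. Accordingly, 79.9% of the intergenic members and 86.4% of the length-weighted TEs had at least 60% CG methylation in both tissues, while the shares below 20% in both tissues were 2.06% and 2.13%. In genic TEs the shares with at least 60% in both tissues were 83.2% of the members and 84.4% of the length-weighted TEs.

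Single members differed in CG in both directions. Among genic members, 537 (17.5%) were at least 10 percentage points higher in EC, beside 12.4% of all genic TEs listed for CG, and 479 (15.6%) were at least 10 points lower, beside 11.2%. The shares of the length-weighted genic TEs were 13.5% and 14.0%. Among intergenic members, 3162 (25.1%) were at least 10 points higher, beside 19.8% of all intergenic TEs listed for CG, and 1793 (14.2%) were at least 10 points lower, beside 8.47%. The length-weighted intergenic TEs had 18.7% and 9.86%. The members thus passed the limit more often than length-weighted TEs in both directions, and the SD of the CG change was wider in the members as well, at 15.7 against 14.6 points for genic and 17.7 against 15.5 points for intergenic TEs. The numbers of CG calls behind these levels were not used here, and their part in this spread was not tested.

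Moves between the high and the low end of the CG scale were rare. In EC 9 genic members (0.294%) had at least 60% CG methylation where leaf had less than 20%, and 15 (0.489%) had less than 20% in EC where leaf had at least 60%. The corresponding intergenic numbers were 99 (0.785%) and 76 (0.603%). Such moves were rare in the length-weighted TEs too, at 0.257% and 0.418% for genic and 0.811% and 0.344% for intergenic TEs. A CG level listed at exactly 100% was found for 7.05% of genic members in EC and 4.37% in leaf, and for 4.87% of intergenic members in EC and 2.93% in leaf. In the length-weighted TEs these shares were 5.61% and 3.20% for genic and 3.31% and 2.14% for intergenic TEs.

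CHH methylation was higher in EC in nearly every member. In intergenic members it averaged 34.8% ± 17.3 in EC and 2.73% ± 4.43 in leaf, a mean change of 32.0 ± 16.0 percentage points. Chromosome means of the change lay between 31.1 points on chromosome 9 and 33.0 on chromosome 8. Of the 12612 intergenic members, 12496 (99.1%) had the higher value in EC, beside 98.9% of the length-weighted TEs. For genic members the number was 2948 (96.2%), beside 93.4%. Of the intergenic members, 11395 (90.4%) were at least 10 points higher, beside 89.7% of all intergenic TEs listed for CHH and 90.9% of the length-weighted TEs. No intergenic member was at least 10 points lower, beside 0.0377% of all intergenic TEs.

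In EC the CHH level of intergenic members was close to that of TEs with all contexts, at 34.8% against 34.7% in the length-weighted TEs, a difference of 0.03 points (SD over chromosomes 0.89). In leaf the members were lower, with 2.73% against 3.76%, and this held on 19 of 19 chromosomes. CHH methylation was listed at exactly 0 in leaf for 13.9% of the intergenic members and 7.04% of the length-weighted TEs. The members' change was therefore higher by 1.06 points (higher on 17 of 19 chromosomes, SD 0.72). With medians it was higher by 0.46 points and from 200 bp upwards by 0.50 points, both less than that SD.

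Genic members had more CHH methylation in EC than length-weighted TEs. Their CHH methylation averaged 20.5% ± 17.9 in EC and 1.96% ± 3.23 in leaf, whereas the length-weighted genic TEs averaged 16.5% in EC and 2.13% in leaf. The difference was 4.0 percentage points in EC, with the members higher on 19 of 19 chromosomes (chromosome differences of 0.909 to 7.32 points, SD 1.61). In leaf it was -0.17 points, less than its SD of 0.40 over chromosomes, with the members higher on 9 and lower on 10 of them. The mean change was 18.5 ± 16.6 points in the members and 14.4 ± 14.8 points in the length-weighted TEs. Medians of EC CHH methylation were 15.3% and 11.2%.

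The difference in EC came with fewer genic members at the low end and more at the high end. EC CHH methylation was under 5% in 21.8% of the genic members and 32.5% of the length-weighted TEs, at least 20% in 40.5% and 32.8%, and at least 40% in 16.4% and 10.6%. TEs with at least 60% CG methylation in both tissues and under 5% CHH in EC, methylated in CG alone of the contexts seen here, made up 505 genic members (16.5%) and 24.1% of the length-weighted genic TEs. An increase of at least 10 points was found for 1837 genic members (59.9%), beside 52.8% of all genic TEs listed for CHH and 48.6% of the length-weighted TEs. No genic member was at least 10 points lower in EC, beside 0.0369% of all genic TEs.

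**Figure D2:**
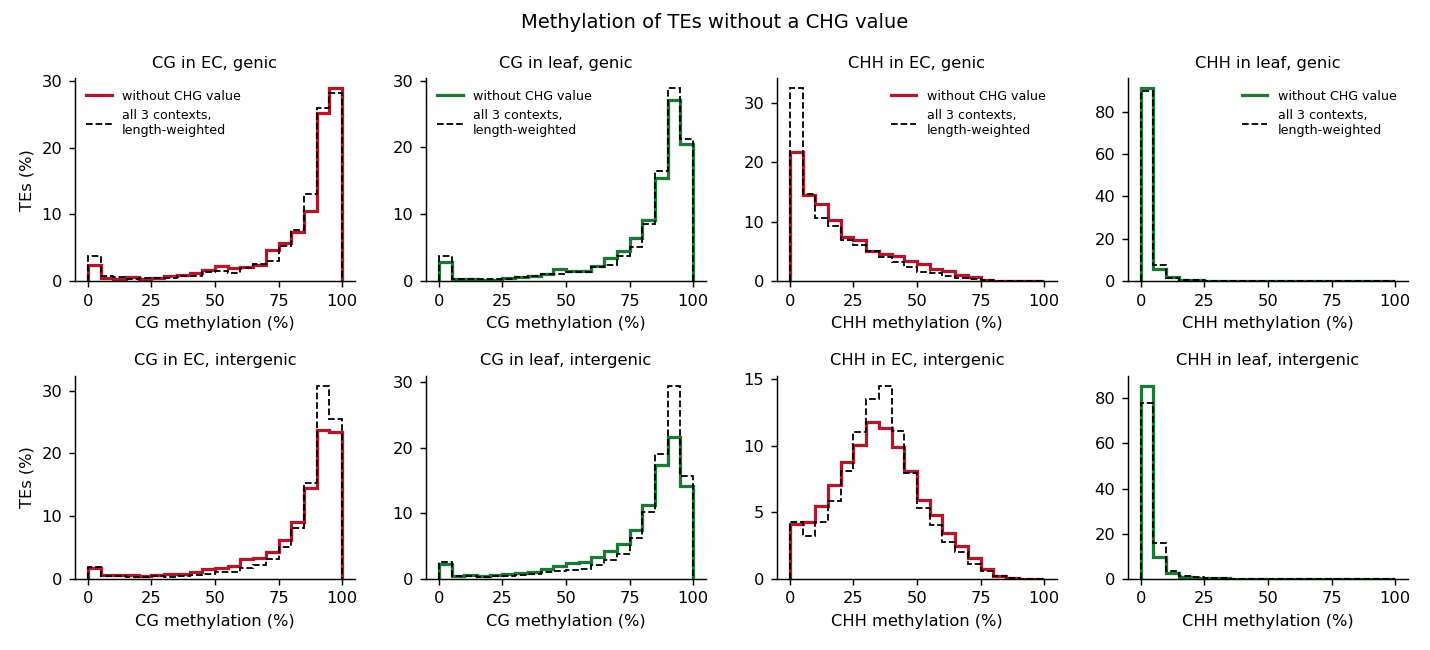
Distribution of CG and CHH methylation (x axes, percent, classes of 5) in EC and in leaf, as a percentage of TEs (y axes, scales differ between panels), for genic TEs (upper row) and intergenic TEs (lower row). Solid lines are members without a CHG level and dashed lines are TEs with all contexts weighted to the members' lengths. In genic TEs the lowest CHH class in EC holds 21.8% of the members and 32.5% of the length-weighted TEs.

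The higher EC CHH level of genic members was seen in every length class. From 51 to 100 bp genic members averaged 15.1% in EC and TEs with all contexts 11.1%, from 201 to 300 bp the values were 21.9% and 18.1%, and from 501 to 1000 bp they were 26.7% and 18.7%. In the 12 genic members above 2000 bp EC CHH methylation averaged 38.2%, against 25.9% in the 3376 genic TEs with all contexts of that length. These 12 were only 0.354% of genic TEs of that length listed for CG and CHH. Their coverage may differ from that of the other TEs, which was not tested. Intergenic members showed no such order. They averaged 32.7% in the class up to 50 bp, against 35.1% in TEs with all contexts, 32.7% from 51 to 100 bp, against 31.8%, 33.1% from 201 to 300 bp, against 34.6%, and 38.1% from 501 to 1000 bp, against 37.2%.

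**Figure D3:**
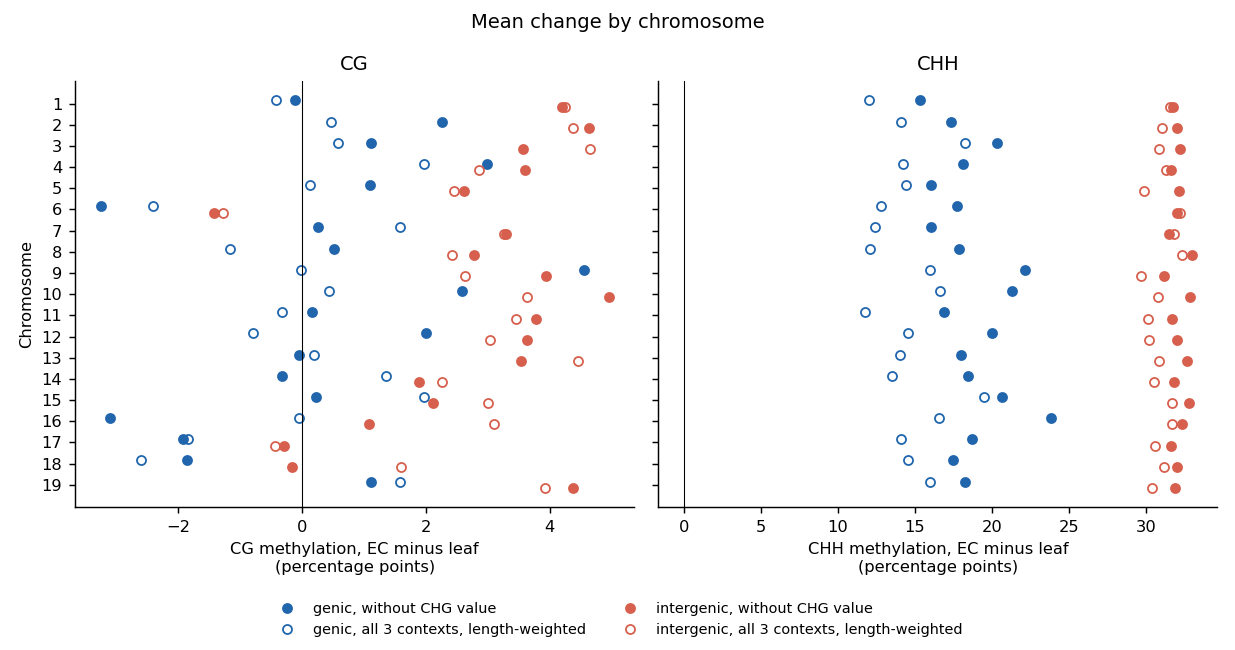
Mean EC minus leaf difference in percentage points (x axes) of CG methylation (left) and CHH methylation (right) for each of chromosomes 1 to 19 (y axis). Filled circles are members without a CHG level and open circles are TEs with all contexts weighted to the members' lengths, for genic and intergenic TEs. For CHH the filled genic circles lie to the right of the open ones on 19 of 19 chromosomes, and for CG filled and open circles of both classes change places between chromosomes.

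The CHH level of the members was also set beside TEs that lacked other contexts. TEs listed for CHG and CHH but not for CG, weighted to the members' lengths, had an EC CHH level of 11.6% in genic and 32.8% in intergenic TEs, lower than the members by 8.94 and 2.0 points. TEs listed for CHH only had 17.9% and 33.0%, lower by 2.64 and 1.73 points. The genic members were thus the highest of these 4 sets in EC at matched lengths, above each of the others on 19 of 19 chromosomes.

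EC CHH methylation of the members varied with their own CG level in leaf. The 108 genic members with less than 20% CG methylation in leaf averaged 9.68% ± 14.9 CHH in EC, the 511 with 60 to under 80% averaged 23.3% ± 18.4, and the 1459 with at least 90% averaged 19.2% ± 17.1. The length-weighted genic TEs of the same classes averaged 3.63%, 17.3% and 16.5%, lower than the members in each. In the 458 intergenic members with less than 20% CG in leaf the EC CHH level was 15.4% ± 16.98, against 12.7% in length-weighted TEs, and in the 4515 with at least 90% it was 36.5% ± 16.7, against 36.6%. With the length-weighted TEs also weighted to the members' classes of leaf CG level, the difference in EC was 3.86 points for genic and 0.61 points for intergenic members.

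The CHG state around the members was taken from their neighbours. The nearest other TE with a CHG level overlapped 365 genic members (11.9%) and 1797 intergenic members (14.2%), against 13.6% and 20.3% of the length-weighted TEs, and no member lay wholly inside such a TE. The median gap was 576 bp for genic and 463.5 bp for intergenic members, against 372 bp and 206 bp for length-weighted TEs, so the members lay farther from the nearest TE with a CHG level. For 1772 genic (57.8%) and 7846 intergenic members (62.2%) the nearest such TE was of the same class and within 1000 bp. The CHG level of these neighbours averaged 43.4% in EC and 53.4% in leaf for genic members, and 69.8% in EC and 59.8% in leaf for intergenic members. Neighbours of length-weighted TEs had 39.3% in EC and 51.1% in leaf for genic, and 73.1% in EC and 63.4% in leaf for intergenic TEs. CHG methylation near the members was thus lower in EC than in leaf in genic surroundings and higher in EC in intergenic ones.

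Members beside a TE with little CHG methylation had less CHH methylation in EC. Where the neighbour had under 20% CHG methylation in leaf, genic members averaged 13.0% ± 14.6 CHH in EC (n = 368), against 8.94% in length-weighted TEs with such neighbours. With neighbours at 20 to under 60% they averaged 21.8% ± 17.8 (n = 489), against 18.4%, and with neighbours at 60% or more 23.3% ± 16.5 (n = 915), against 21.0%. Their own CG level in leaf was 82.4%, 83.8% and 86.9% in these classes. Intergenic members averaged 28.4% ± 19.7 (n = 688), 35.1% ± 16.5 (n = 2368) and 37.0% ± 15.6 (n = 4790), against 25.7%, 34.4% and 36.1%. Their own CG level in leaf differed more between the classes, at 68.2%, 78.6% and 82.7%, and its part in the CHH difference was not tested. The members with such a neighbour exceeded the length-weighted TEs in each of the classes, by 2.31 to 4.11 points in genic and by 0.68 to 2.77 points in intergenic TEs. Over all 12612 intergenic members the EC difference was 0.03 points, with an SD over chromosomes of 0.89 points. No spread over chromosomes was taken for the class differences.

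**Figure D4:**
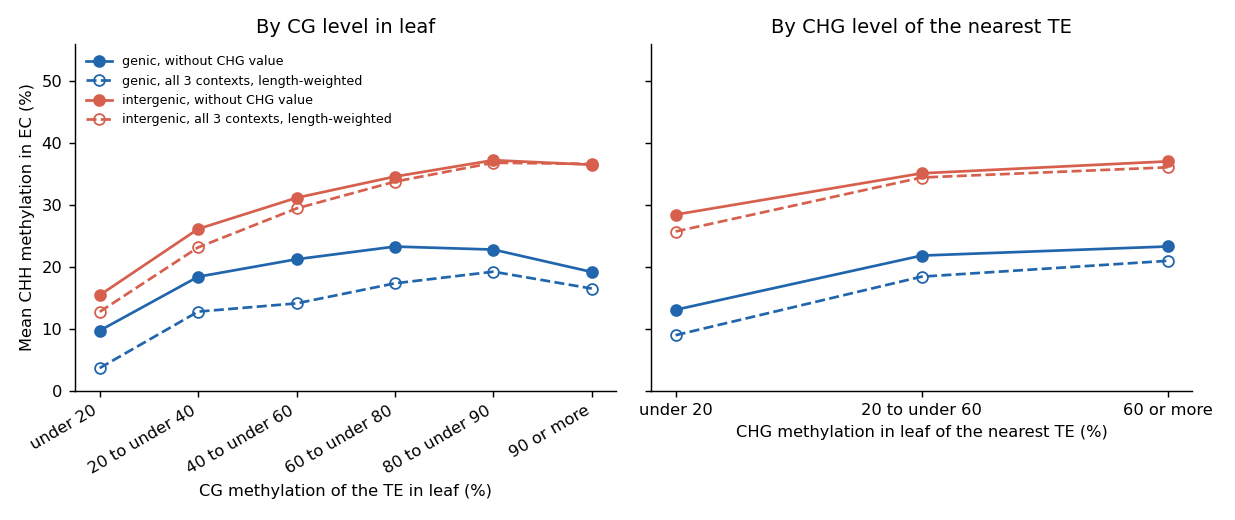
Mean CHH methylation in EC (y axis, percent) by class of the TE's own CG level in leaf (left) and of a neighbour's CHG level in leaf (right). The neighbour is the nearest other TE with a CHG level, where it was of the same class and within 1000 bp. Filled circles and solid lines are members without a CHG level, and open circles and dashed lines are TEs with all contexts weighted to the members' lengths. Genic members lie above the dashed line in every class, for example at 13.0% against 8.94% beside neighbours under 20% CHG.

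Some exact lengths recurred among the intergenic members. The most frequent were 148 bp with 112 members, 112 bp with 82 and 172 bp with 68, where the lengths within 5 bp of them held 38.8, 34.2 and 36.3 members each on average. These lengths were singled out after their numbers were seen. The TE names and sequences were not used here, so whether the members of 1 length are copies of 1 element was not tested. They were spread over 19, 19 and 17 chromosomes. Of all TEs of 148 bp listed for CG and CHH, 54.9% lacked a CHG level, against 34.9% within 5 bp. At 112 bp the shares were 53.6% and 41.7%, and at 172 bp 37.0% and 30.6%. The most frequent length among genic members, 123 bp, held 23 of them.

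The members of these lengths had more CHH methylation in EC than members of similar length. EC CHH methylation averaged 47.5% ± 14.6 at 148 bp, against 32.5% in members within 5 bp, 48.4% ± 20.9 at 112 bp, against 33.9%, and 47.0% ± 15.2 at 172 bp, against 33.4%. TEs of the same lengths with a CHG level averaged 36.9% at 148 bp, 46.9% at 112 bp and 39.8% at 172 bp. In leaf the 112 bp members and those just shorter were high. At 112 bp CHH methylation averaged 13.5% ± 14.2 (median 6.92%, highest 47.9%), against 3.97% in members within 5 bp, and 25 of the 82 had at least 20%. The 51 intergenic members of 111 bp averaged 41.3% in EC and 9.71% in leaf, and the 38 of 110 bp 36.1% in EC and 6.42% in leaf, while the 25 of 113 bp had 32.8% in EC and 2.07% in leaf. The 15 genic members of 112 bp had similar means, of 44.7% in EC and 14.0% in leaf. The 18 genic members of 148 bp and the 16 of 172 bp had lower EC means than the intergenic ones, of 27.9% and 29.7%. Genic members were lower at all lengths together, with 20.5% against 34.8%. Beside their own class these lengths were high as well. Genic members of 147 and 149 bp averaged 9.16% and 14.5% in EC, and those of 171 and 173 bp 15.1% and 21.2%. The 10 genic members of 169 bp had 32.9%, however. Intergenic members of 170 and 171 bp averaged 39.9% and 40.2% in EC. Leaf means of the intergenic members of 148 and 172 bp were 4.35% and 3.12%. Leaf CHH methylation at 112 bp was also high in TEs with a CHG level, at 12.6%. CG levels at 148 bp were 85.0% in EC and 80.3% in leaf, at 112 bp 78.7% and 79.4%, and at 172 bp 84.1% and 79.0%.

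**Figure D5:**
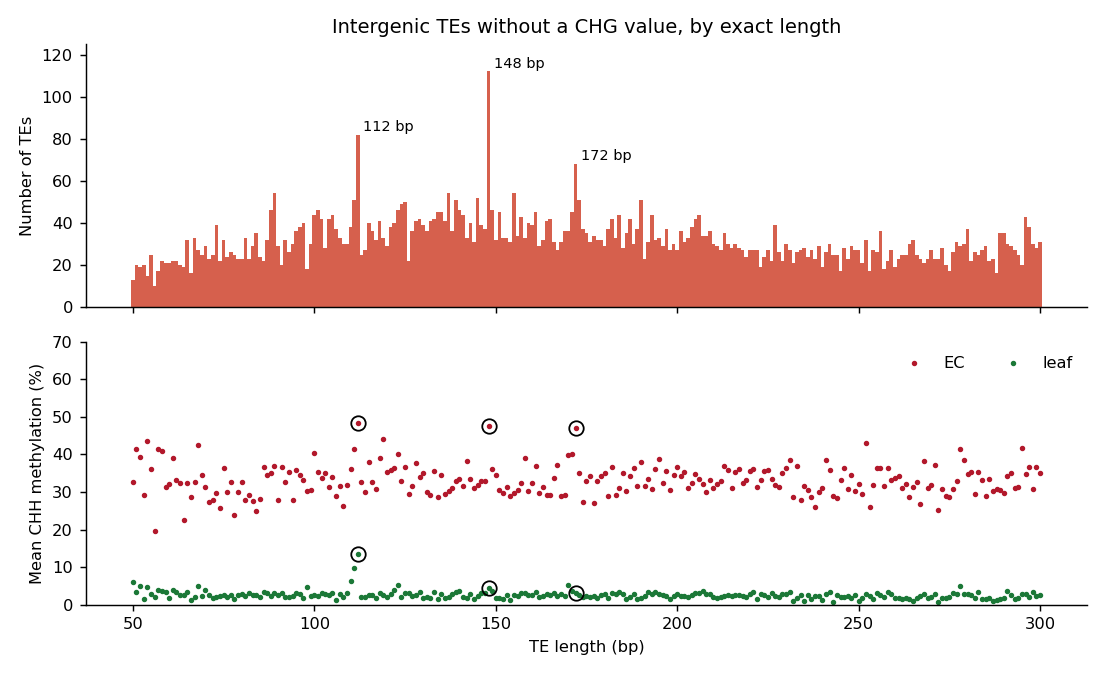
Number of intergenic members (upper panel, y axis) and their mean CHH methylation in EC and in leaf (lower panel, y axis, percent) at each exact length from 50 to 300 bp (x axis). The 3 most frequent lengths, 112, 148 and 172 bp, stand out by number and, circled in black, by an EC mean of 47.0% to 48.4%, and 112 bp by a leaf mean of 13.5%.

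Single members show how these levels combine. Positions are those of the 12X assembly of the PN40024 genome as deposited, and the gene that a genic TE overlaps was not identified here. A genic member near the median of its class lay at chr14:18368924-18369111 on the minus strand (188 bp). It had 92.24% CG methylation in EC and 89.51% in leaf, and 15.47% CHH methylation in EC and 1.14% in leaf. The nearest other TE with a CHG level, genic and 147 bp away, had 49.8% CHG methylation in EC and 76.66% in leaf. An intergenic member near the median, at chr10:7278734-7278968 (minus strand, 235 bp), had 88.64% CG methylation in EC and 83.67% in leaf, and 33.59% CHH methylation in EC and 1.21% in leaf.

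CHH methylation in EC could be high with little CG methylation. The genic member of at least 100 bp with the widest CHH difference, at chr3:4717665-4717871 (plus strand, 207 bp), had 80.62% CHH methylation in EC and 3.66% in leaf, while CG was listed at 0 in EC and at 3.12% in leaf. It was 1 of 3 genic members (0.0978%) with at least 20% CHH in EC and less than 20% CG in both tissues. The share in the length-weighted genic TEs was 0.0844%. Among intergenic members there were 44 (0.349%), beside 0.207% of the length-weighted TEs. The next widest genic CHH difference was at chr18:25119657-25120083 (minus strand, 427 bp). This TE had 75.72% CHH in EC and 0.23% in leaf, with CG methylation of 97.11% in EC and 96.88% in leaf. The widest intergenic difference, at chr8:14344436-14344649 (minus strand, 214 bp), was 88% in EC and 0.81% in leaf. The nearest other TE with a CHG level, intergenic and 290 bp away, had 2.33% CHG methylation in EC and 0 in leaf.

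The named members with wide CG rises had more CHH in EC, and most of those with wide CG falls had little in either tissue. At chr3:5705704-5705809 (minus strand, 106 bp) a genic member had 4.76% CG methylation in EC and 100% in leaf, with CHH listed at 0 in both tissues. At chr13:2916989-2917153 (minus strand, 165 bp) a genic member had 90.71% CG in EC and 0 in leaf, with 22.87% CHH in EC and 0 in leaf. The intergenic member at chr11:11380627-11380750 (minus strand, 124 bp) had 5% CG in EC and 96.77% in leaf, yet 31.67% CHH in EC and 1.97% in leaf. The intergenic member at chr2:15637587-15637797 (minus strand, 211 bp) had 94.54% CG in EC and 0 in leaf, and 33.3% CHH in EC and 0 in leaf. The other CG rises, at chr12:2047013-2047117 (genic) and chr10:5610037-5610285 (intergenic), came with 8.18% and 18.05% CHH in EC and 0.51% and 1.09% in leaf. The other CG falls, at chr17:3317563-3317678 (genic) and chr12:5448415-5448608 (intergenic), had 0.45% and 3.3% CHH in EC and 0 and 3.12% in leaf. High CHH methylation in EC beside a wide CG fall was thus seen only at the chr11 position among these named members.

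The few members with a lower CHH level in EC differed by little. The widest such differences among the named TEs were 4.30% in EC and 8.75% in leaf for a genic member at chr7:6660244-6660374 (minus strand, 131 bp), and 35.19% in EC and 41.22% in leaf for an intergenic member at chr16:19464480-19465098 (minus strand, 619 bp). Across all members, 57 genic (1.86%) and 45 intergenic TEs (0.357%) were lower in EC at all, beside 3.22% and 0.627% of the length-weighted TEs. A fall cannot exceed the leaf level, which averaged only 1.96% in genic and 2.73% in intergenic members.

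The longest members were far longer than most TEs without a CHG level. The longest genic member, 5754 bp at chr7:13129599-13135352 on the minus strand, had 86.72% CG methylation in EC and 100% in leaf, and 45.82% CHH in EC and 6.25% in leaf. The longest intergenic member, 7728 bp at chr3:4788401-4796128 on the minus strand, had 93.47% CG in EC and 45.24% in leaf, and 42.77% CHH in EC and 2.37% in leaf. Another, 6945 bp at chr19:11868237-11875181 on the minus strand, had 71.76% CG in EC and 54.76% in leaf, and the intergenic TE 29 bp away had 86.8% CHG methylation in EC and 61.56% in leaf. All of the 3 longest members of each class had at least 29.30 points more CHH methylation in EC. Above 2000 bp only 0.354% of genic and 0.456% of intergenic TEs lacked a CHG level. Whether few reads lie behind the levels of these long members was not tested.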

How the data were processed

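The authors mapped bisulphite read pairs to the 12X PN40024 genome using BS-Seeker2, made methylation calls and averages per TE using cgmaptools, and filtered the TEs of each context on an effective coverage over 20 in each of the libraries. The 6 deposited tables used here hold each level as a fraction, which was multiplied to a percentage. The tables carry no read numbers, so no interval or test that needs depth was possible. Averaged profiles across features and TE families were not used. Mapping Chardonnay reads to another genotype can lower apparent methylation at C-to-T differences, and short TEs rest on few cytosines.

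TEs listed in all 3 contexts were weighted to the members' lengths in classes of 10 bp under 200 bp, 50 bp under 1000 bp and 1 class above. Length classes of 2 genic members held no such TE, and these members were left out of such differences. Per class, TEs were named among members of at least 100 bp on chromosomes 1 to 19 as the 3 longest, the 2 with the largest CG and CHH differences in each direction and the 2 nearest to the class medians; some of these are described. The members, limits and lists were chosen with earlier results of these data known. A count of cytosines per TE and a printing of sequences were planned and not run, as no genome of this build was used here. Python 3.11.15, pandas 2.3.3, numpy 2.4.6 and matplotlib 3.10.9 were used.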

Additional observations from a re-analysis of the deposited data

How the results depend on the processing

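Across 38 results, 128 values were recomputed under alternatives, of which 100 moved by less than 1 SD (over chromosomes, or over TEs for the recurrent lengths; counts within 1.5 times), 28 moved further and 0 reversed. A change of sign within 1 SD counts as moving by less and not as reversed. The CG change of genic members was 0.39 points, and -0.02 without levels listed at 0% or 100%. The EC CG difference of genic members from length-weighted TEs was 0.33 points, and -0.89 from 200 bp upwards. The EC CHH difference of intergenic members was 0.03 points, and -0.60 with medians. The differences between genic members and length-weighted TEs did not move by more than 1 SD under any alternative run. With the median, the CHH change of genic members was 13.6 percentage points, and the EC CG difference of intergenic members from length-weighted TEs was -2.28. In members reaching 20% in either tissue the CHH change was 35.1 points in genic and 37.8 points in intergenic TEs. Without levels listed at 0% or 100% it was 20.8 and 33.4 points, and with the longest of overlapping TEs only it was 31.3 in intergenic TEs. From 200 bp upwards it was 21.7 and 32.9 points, the share without a CHG level was 7.86% for genic and 10.8% for intergenic TEs, and the counts at the 10 point limit were, for genic TEs, 284 higher and 241 lower in CG and 1068 higher in CHH, and for intergenic TEs 1847, 1078 and 6658. With a limit of 5 points, CG counts were 988 higher and 755 lower in genic and 5052 and 2896 in intergenic TEs, and 2 intergenic members were lower in CHH. With 20 points they were 201, 231, 1381 and 853, and 1124 genic members were higher in CHH. The SD over TEs is wide, so EC CHH at 112 bp is counted as moving by less although it was 48.4% there and 33.9% within 5 bp. The comparison of recurrent lengths with lengths within 5 bp and the weighting by leaf CG class were chosen after seeing the data. The weighting by number of CG sites was not run. No paired analysis was possible because each tissue has 1 library. Unknown depth limits every single level, in short TEs and also in the longest members, which missed the CHG coverage limit despite their length.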
